A study of Mus musculus with 6 samples.

Results

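The genes described here are 9 effector cytokines and death ligands of CD8+ T cells, namely Ifng, Tnf, Lta, Ltb, Fasl, Tnfsf10, Csf1, Areg and Tgfb1. They were chosen by name, and all 9 were among the 15898 genes of the deposited count table. They were measured in terminally exhausted CD8+ T cells from B16F10 mouse melanomas. The 4 IL-10/Fc libraries came from mice given 4 injections of 20 µg IL-10/Fc beside the tumour. IL-10/Fc is interleukin-10 fused to an antibody Fc part. The 2 PBS libraries came from mice given phosphate-buffered saline by the same route. Both groups shared everything else the labels give. The strain was C57BL/6, with the labelled genotype B6.Cg-Thy1a/Cy for the Thy1.1 allele together with the receptor transgene Tg(TcraTcrb)8Rest/J. Mice were irradiated with 4 Gy and received naive Thy1.1+ PMEL T cells before B16F10 cells were implanted. On day 10 activated Thy1.2+ PMEL CD8+ cells were added by vein and the injections began. Tumours were taken on day 18, and 500 CD8+ cells positive for Thy1.1, PD-1 and TIM-3 were sorted per library. The labels give a sort purity of over 99%. The cells were used for Smart-Seq2, a full-length RNA-seq method for few cells. The PMEL receptor recognises the melanocyte antigen gp100, and the recipients kept whatever T cells of their own survived irradiation. Ages are not given in the labels. Whether each library came from a separate mouse is not stated, so the p-values speak to the spread among these 6 samples only, and that spread may be technical.

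CD8+ T cells act on a tumour in part by killing and in part by what they secrete. Interferon-gamma (Ifng) signals to tumour, myeloid and T cells and raises antigen presentation. TNF and the lymphotoxins (Tnf, Lta, Ltb) activate NF-kappaB or cell death in cells that bear their receptors, while Fas ligand (Fasl) and TRAIL (Tnfsf10) trigger apoptosis through death receptors. Csf1 keeps macrophages alive, the EGF receptor ligand Areg is linked to tissue repair, and Tgfb1 restrains T cells. In chronic stimulation, exhausted T cells are known to lose Tnf output before that of Ifng. The comparison is between exhausted cells from tumours with and without IL-10/Fc.

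Library totals were 28235203 to 36941814 counts in IL-10/Fc and 26738871 and 28774401 in PBS. At these depths a floor of 3 counts is 0.0855 to 0.108 CPM in IL-10/Fc, and 0.0980 to 0.102 CPM in PBS. CPM is the usual depth-scaled unit, a gene's count as ppm of the library total after scaling by edgeR's TMM factors. Sort marker transcripts were present in every library, and PBS replicate 1 had the lowest summed CD8 T cell and sort markers. Summed over 9 CD8 T cell and sort markers, the level was 12853 to 14519 CPM in IL-10/Fc, against 6899 CPM in PBS replicate 1 and 10777 CPM in PBS replicate 2. Of these, Cd8a stood at 2896 to 3160 CPM in IL-10/Fc, against 910 and 2291 CPM in PBS. Not every marker was lowest in PBS replicate 1. Pdcd1, which encodes PD-1, stood at 699 to 1112 CPM in IL-10/Fc, against 1578 and 1286 CPM in PBS. Havcr2, which encodes TIM-3, stood at 161 to 311 CPM in IL-10/Fc, against 200 and 189 CPM in PBS. Of the 9 markers, 7 had log2 fold changes above 0 and 2 below. The 20 macrophage and monocyte markers were all listed and summed to 3539 to 7043 CPM in IL-10/Fc and 1721 to 2522 CPM in PBS. Most of that sum was Ly6c2, which activated T cells express too. Without it the 19 others summed to 283 to 1245 CPM in IL-10/Fc, and to 349 and 523 CPM in PBS, so that these sums overlapped, but gene by gene the list was mostly higher in IL-10/Fc. Of its 20 genes 18 had log2 fold changes above 0, with a median of 1.57. The groups were apart for 7, all higher in IL-10/Fc, and edgeR called 0, with 7 higher at an unadjusted p under 0.05. DESeq2 called 7 higher, as did the authors' deposited table, and 0 lower. Only Mrc1 of these 20 genes lacked counts in PBS altogether, and it reached no more than 5.58 CPM in IL-10/Fc. Others were present in PBS, such as C1qb at 21.2 and 13.8 CPM. Lyz2 and Apoe, the genes with log2 fold changes below 0, were highest in PBS replicate 2 (301 CPM) and PBS replicate 1 (108 CPM). The 7 listed dendritic cell and MHC class II markers summed to 172 to 1915 CPM in IL-10/Fc and 228 and 310 CPM in PBS, with 5 of 7 above 0 and a median log2 fold change of 2.11. The 9 listed NK and innate lymphoid markers summed to 371 to 821 CPM in IL-10/Fc and 350 and 251 CPM in PBS, with Ncr1 not among the listed genes and 6 of 9 above 0. Most of that sum was Rora, Fcer1g and Tyrobp in every library, and Fcer1g and Tyrobp also stand among the macrophage and monocyte markers. B cell, neutrophil and mast cell, melanoma and stromal marker lists summed to at most 68.0 CPM in any library. Cd4 and Foxp3 were not among the listed genes. The part of these cells in the results on the 9 genes was not tested. In bulk RNA, fewer cells that express a gene and less RNA per cell cannot be told apart.

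The transcripts of TRAIL and amphiregulin were the ones whose levels separated the groups, and Ifng and Csf1 had higher means with overlapping libraries. Tnf, Lta, Ltb, Fasl and Tgfb1 had libraries of both groups mixed or overlapping in level. None of the 9 passed edgeR's quasi-likelihood test at a Benjamini-Hochberg adjusted p of 0.05, where 0.00646% of the 15477 genes tested passed (1 gene). At an unadjusted p under 0.05 there were 2 of the 9, Tnfsf10 and Areg, against 12.7% of all genes. DESeq2's Wald test called this pair too, both higher, with 5.04% of all genes called and 3.46% called higher. In the authors' deposited table the called members were again Tnfsf10 and Areg, where 5.3% of all genes were called. By limma-voom 0 of the 9 were called, beside 0.00646% of all genes. All 9 passed the filter on low counts. Areg, with 17 and 1 counts in PBS, could pass it only with the IL-10/Fc libraries, where it had 49 to 748 counts. That Areg was tested at all thus depended on the group where it was high. The groups did not overlap for 2 of the 9, both higher, against 23.6% of all genes in either direction and 12.1% higher. The median log2 fold change of the 9 was 0.35, beside -0.01 over all genes tested.

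**Figure D1:**
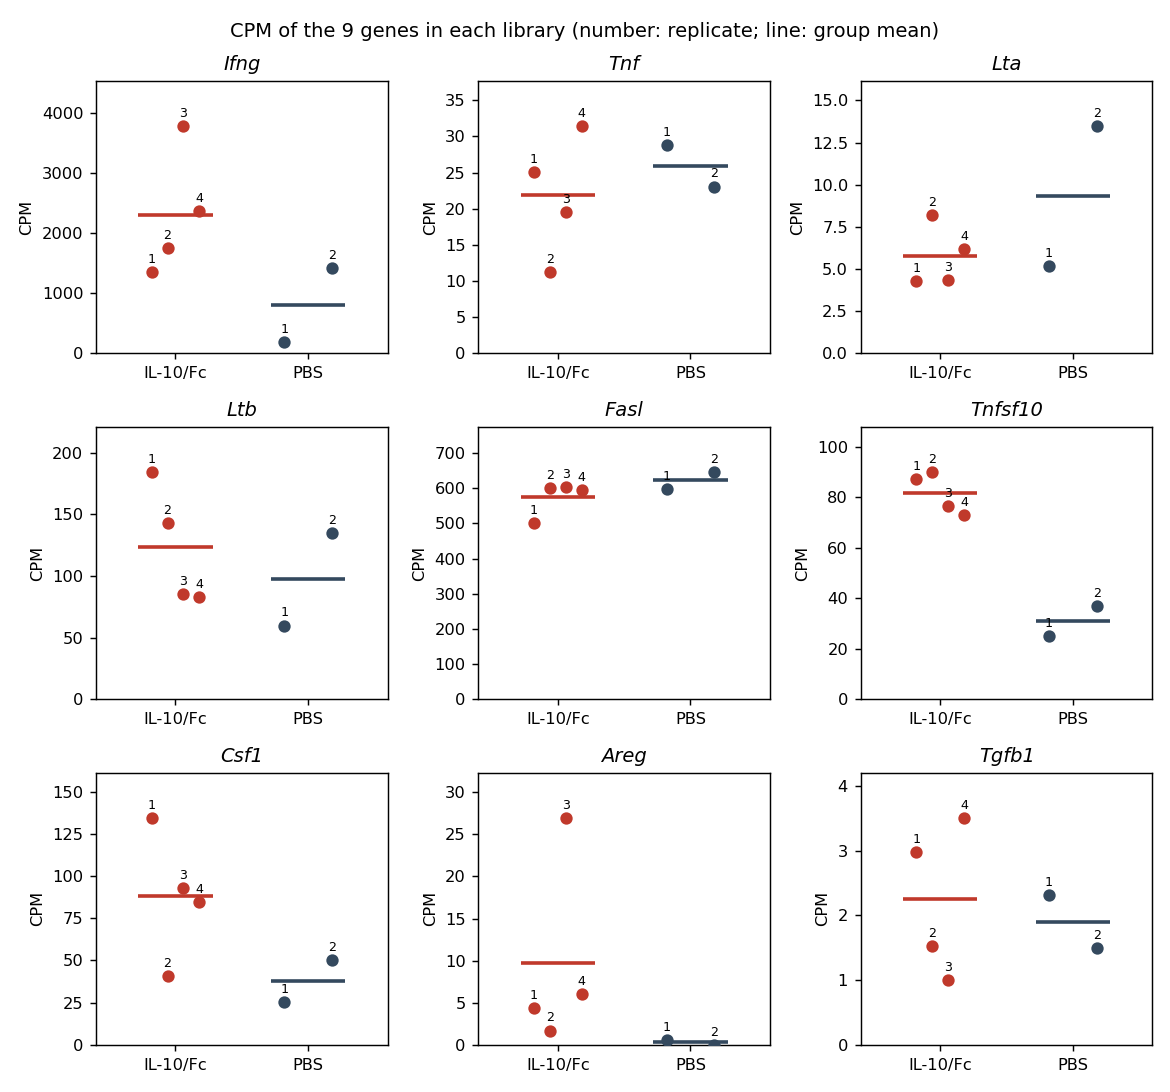
CPM (vertical axis, from 0) of each of the 9 genes in the 4 IL-10/Fc libraries (red) and the 2 PBS libraries (dark blue); numbers are replicates and lines are group means. The groups are apart for Tnfsf10 (72.99 CPM or more in IL-10/Fc, at most 36.9 CPM in PBS) and Areg, and Ifng shows a wide gap between PBS replicates 1 and 2.

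Ifng (ENSMUSG00000055170; chromosome 10, 118441047 to 118445892, plus strand, GRCm38) was the most abundant of the 9. It stood at 1346, 1745, 3773 and 2361 CPM in IL-10/Fc replicates 1 to 4, against 193 and 1424 CPM in PBS replicates 1 and 2. PBS replicate 2 lay within the IL-10/Fc range and PBS replicate 1 far below it, so the groups overlapped and 3 of 4 IL-10/Fc libraries exceeded both PBS libraries. The log2 fold change was 1.51 (SE 0.82), with a 95% interval of -0.47 to 3.50, and did not pass (edgeR quasi-likelihood, adjusted p = 0.509). The PBS libraries differed 7.39-fold from each other, more than the 2.80-fold between the highest and lowest IL-10/Fc library. Among the 5451 genes tested with a mean of at least 20 CPM, 0.349% had a PBS difference at least as large on the log2 scale. Without PBS replicate 1 the log2 fold change was 0.69 (adjusted p = 0.761), and without PBS replicate 2 it was 3.58 (adjusted p = 0.145). PBS replicate 1, the low one, was also the library with the lowest summed CD8 T cell and sort markers, though with the highest Pdcd1.

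The sequence just upstream of Ifng is shown because Ifng was the most abundant of the 9 and the one with the widest gap in CPM between the PBS libraries. Capitals mark matches, here to TTCNNNGAA, the letters of the gamma-activated site (GAS), and to the TATA box letters TATAAA. The region is chr10:118440796-118441045, plus strand, from RefSeq on GRCm38.p6.
Ifng: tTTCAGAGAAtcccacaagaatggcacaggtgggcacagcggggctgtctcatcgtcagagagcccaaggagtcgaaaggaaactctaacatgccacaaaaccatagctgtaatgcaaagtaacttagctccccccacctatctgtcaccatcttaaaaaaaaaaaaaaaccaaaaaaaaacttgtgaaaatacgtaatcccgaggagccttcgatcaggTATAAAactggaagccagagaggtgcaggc
In the windows of 250 bases before 32851 RefSeq gene starts, searched on both strands, 7.02% held TTCNNNGAA and 12.4% held TATAAA. A match is a description of these letters and not a bound site. No gene of the deposited table overlapped Ifng or any of the other 8. In GENCODE M21, Gm49751 overlaps Ifng, Mir6974 overlaps Lta and Mir6973a overlaps Ltb, and since Smart-Seq2 does not mark strand, reads from such a pair cannot be told apart.

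Seen together, the transcripts of the 9 genes were mostly Ifng and Fasl. Ifng made up 58.8%, 66.0%, 80.6% and 72.8% of their summed CPM in IL-10/Fc replicates 1 to 4, against 20.5% and 61.1% in PBS replicates 1 and 2. Fasl made up 12.9% to 22.7% in IL-10/Fc, against 63.8% and 27.7% in PBS. In PBS replicate 1 the order was therefore turned, with Fasl above Ifng. Their total was 2290 to 4684 CPM in IL-10/Fc, against 938 and 2330 CPM in PBS.

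**Figure D2:**
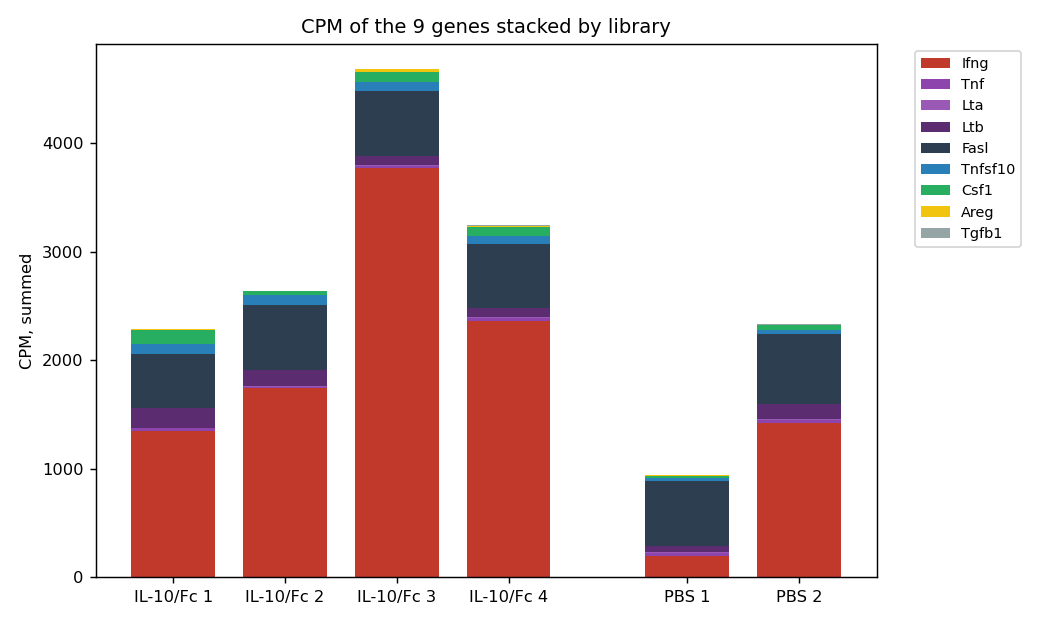
Summed CPM of the 9 genes (vertical axis, from 0) stacked by gene in each library, IL-10/Fc replicates 1 to 4 and then PBS replicates 1 and 2. The bars differ mainly in their Ifng segment, from 193 CPM in PBS replicate 1 to 3773 CPM in IL-10/Fc replicate 3, while the Fasl segment is of similar height in all 6.

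Per kilobase of exon, the scale on which genes can be set beside each other, Ifng had a mean level of 1395 CPM per kb over the 6 libraries, Fasl 305 and Ltb 75.9. Ifng stood above Fasl in 5 of 6 libraries, the exception being PBS replicate 1, Fasl above Ltb in 6 of 6 and Ltb above Tnf in 6 of 6. Tnf (14.2 CPM per kb), Csf1 (13.5) and Tnfsf10 (12.3) lay close together. Tnf was above Csf1 in 3 of 6 libraries, that is in 1 of 4 IL-10/Fc libraries and 2 of 2 PBS libraries, and Csf1 was above Tnfsf10 in 5 of 6. Areg (5.45) and Lta (5.02) were likewise not separated, Areg being above Lta in 3 of 4 IL-10/Fc libraries and in 0 of 2 PBS libraries. Tgfb1 had the lowest mean, 0.425 CPM per kb, and lay below Lta in all 6 libraries. Its mean was 0.448 CPM per kb in IL-10/Fc and 0.378 CPM per kb in PBS, while that of Areg was 8.04 CPM per kb in IL-10/Fc and 0.251 CPM per kb in PBS, so that Areg was the lowest of the 9 by the PBS mean.

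The lymphotoxin and TNF genes lie side by side in the MHC region of chromosome 17, where Ltb (35194439 to 35196320, plus strand), Tnf (35199381 to 35202007, minus strand) and Lta (35203165 to 35205351, minus strand) span 10913 bases. Only 1157 bases separate Tnf from Lta. The libraries with the most and the least transcript were not the same for all 3. Tnf stood at 25.1, 11.3, 19.6 and 31.4 CPM in IL-10/Fc, against 28.9 and 23.1 CPM in PBS. Its log2 fold change was -0.25 (SE 0.40; 95% interval -1.20 to 0.71), and the libraries overlapped. Lta, whose product forms the secreted lymphotoxin, stood at 4.29, 8.20, 4.32 and 6.21 CPM in IL-10/Fc, against 5.20 and 13.5 CPM in PBS. PBS replicate 2 was the highest of all and PBS replicate 1 lay among the IL-10/Fc libraries, and the log2 fold change was -0.70 (SE 0.47; 95% interval -1.84 to 0.45).

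Ltb, which anchors lymphotoxin at the cell surface, was far more abundant than its neighbours. It stood at 184, 143, 85.4 and 83.1 CPM in IL-10/Fc, against 59.8 and 135 CPM in PBS. IL-10/Fc replicates 1 and 2 were above both PBS libraries and replicates 3 and 4 lay between them, so the groups overlapped. On the log2 scale the difference was 0.35 (SE 0.46; 95% interval -0.76 to 1.45). By edgeR's quasi-likelihood test the adjusted p was 0.867 for Tnf, 0.609 for Lta and 0.834 for Ltb. IL-10/Fc replicate 2 had the lowest Tnf but the highest IL-10/Fc Lta. Without PBS replicate 1 the Ltb difference was -0.13, and without PBS replicate 2 the Lta difference was 0.15, both on the log2 scale, so each changed sign with 1 control library. On the Ltb side, the next listed gene, the myeloid gene Lst1, stood at 7.34 to 30.0 CPM in IL-10/Fc, against 4.14 and 13.2 CPM in PBS. On the Lta side, Nfkbil1 stood at 0.0670 to 2.27 CPM in IL-10/Fc, against 1.12 and 1.18 CPM in PBS.

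Tnf messenger RNA is a textbook case of control by AU-rich elements, stretches in the 3' untranslated region that proteins such as tristetraprolin (Zfp36) bind to speed decay. The nonamer TTATTTATT was counted in the 3' untranslated regions of GENCODE M21 transcripts, taking for each gene the longest protein-coding transcript that has one, with overlapping matches counted. It occurred 5 times in Tnf, once each in Lta and Areg and not at all in the other 6. Of 21020 genes, 7.57% held at least 1 nonamer and 0.647% at least 3. Windows of 30 bases with the most nonamers are shown, nonamers in capitals, for the 3 genes that hold any. They lie at chr17:35199674-35199703 (Tnf, minus strand), chr17:35203396-35203425 (Lta, minus strand) and chr5:91148381-91148410 (Areg, plus strand) on GRCm38, all within annotated 3' untranslated exons.
Tnf: ttaTTATTTATTTATTATTTATTTATTtgc
Lta: gaaaagttaagTTATTTATTtatagagaat
Areg: atatttaagtgTTATTTATTttatagctca
The shorter core ATTTA occurred 8 times each in Tnf and in the longer region of Tnfsf10, 6 times in Ifng, 4 times each in Csf1 and Areg, 3 times in Lta, 1 time each in Fasl and Tgfb1 and 0 times in Ltb. Per kilobase it was densest in Areg (15.8), followed by Tnf (10.5) and Ifng (9.51).

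Fasl was the steadiest of the 9. This gene (ENSMUSG00000000817; chromosome 1, 161780689 to 161788495, minus strand) stood at 501, 601, 604 and 595 CPM in IL-10/Fc, against 599 and 646 CPM in PBS. IL-10/Fc replicate 1 was the lowest and the other 3 lay close to PBS replicate 1. Its log2 fold change was -0.11 (SE 0.11; edgeR adjusted p = 0.742). Its 95% interval ran from -0.37 to 0.15, which as a fold is 0.771 to 1.11, so a change of the size measured for Tnfsf10 lay outside it. Fas, its receptor, stood at 65.1 to 119 CPM in IL-10/Fc, against 123 and 65.8 CPM in PBS (log2 fold change 0.02, SE 0.34).

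Tnfsf10, which encodes TRAIL, showed the clearest group difference of the 9. The gene (ENSMUSG00000039304) lies on chromosome 3 at 27317028 to 27342427, plus strand. It stood at 87.4, 90.0, 76.5 and 72.99 CPM in IL-10/Fc, against 25.03 and 36.9 CPM in PBS. All 4 IL-10/Fc libraries exceeded both PBS libraries, the lowest of them by 1.98-fold over the higher PBS library, and the spread within each group was small beside the gap. Mean levels were 81.7 ± 8.23 CPM for the 4 IL-10/Fc libraries and 31.0 ± 8.38 CPM for the 2 PBS libraries (± SD). The log2 fold change was 1.40 (SE 0.20; 95% interval 0.91 to 1.89), and the gene ranked number 34 of 15477 by p. It did not pass edgeR's quasi-likelihood test (adjusted p = 0.148). It passed when genes were required to reach 20 CPM in 2 libraries (adjusted p = 0.0412, 0.737% of 5974 genes called higher) and by DESeq2's Wald test (adjusted p = 1.23e-07). In the authors' deposited table it was called higher (log2 fold change 1.40, adjusted p = 1.56e-07), where 3.57% of genes were called higher. With each library left out in turn the log2 fold change was 1.15 to 1.71. NK cells express TRAIL too, and the summed NK and innate lymphoid markers were 371 to 821 CPM in IL-10/Fc, against 350 and 251 CPM in PBS. Most of that sum was Rora, Fcer1g and Tyrobp in every library, so it is not a level of NK cells. Rora stood at 223 to 286 CPM in IL-10/Fc, against 225 and 154 CPM in PBS. Fcer1g and Tyrobp also stand among the macrophage and monocyte markers. Ncr1 and Klra4 were not among the listed genes. Of the 9 that were, 6 had log2 fold changes above 0, with a median of 0.42, and at an unadjusted p under 0.05, 3 were higher (Fcer1g, Klra9 and Klra8) and 1 lower (Klrb1c). The groups were apart for Fcer1g, which myeloid cells also express, and Klra8, both higher. Klra8 stood at 0.732 to 4.70 CPM in IL-10/Fc, against 0.272 and 0.327 CPM in PBS, and Klrb1c at 0.0335 to 0.720 CPM in IL-10/Fc, against 10.1 and 0.0653 CPM in PBS. Their part in the Tnfsf10 difference was not tested. Tnfrsf10b, the mouse death receptor for TRAIL, stood at 0 to 1.66 CPM in IL-10/Fc, against 2.24 and 0.0980 CPM in PBS.

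The upstream sequence of Tnfsf10 is shown beside that of Areg, the other gene whose groups were apart. These are chr3:27316827-27317027 and chr5:91139349-91139598, both plus strand, from RefSeq on GRCm38.p6 and ending at the gene start of the deposited table. Capitals mark matches, on either strand, to any of 7 motifs: GAAA and GAAA 2 bases apart (interferon-stimulated response element type), TTCNNNGAA (GAS), GGGA and CC 4 bases apart (kappaB type), TGANTCA (AP-1), TGACGTCA (cyclic AMP response element), GGAAAA (NFAT core with an A run) and TATAAA.
Tnfsf10: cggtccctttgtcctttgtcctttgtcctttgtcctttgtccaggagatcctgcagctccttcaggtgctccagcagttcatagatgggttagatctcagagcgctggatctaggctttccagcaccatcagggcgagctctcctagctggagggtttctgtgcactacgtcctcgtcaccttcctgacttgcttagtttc
Areg: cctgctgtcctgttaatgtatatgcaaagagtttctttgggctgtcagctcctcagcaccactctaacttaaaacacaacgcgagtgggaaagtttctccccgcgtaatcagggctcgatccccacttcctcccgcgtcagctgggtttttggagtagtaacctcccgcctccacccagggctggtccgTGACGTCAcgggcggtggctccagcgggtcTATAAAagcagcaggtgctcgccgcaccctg
The 201 bases of Tnfsf10 held none of the 7, which says only that these letters are not in this window. Areg held TGACGTCA at -61 to -54 and TATAAA at -31 to -26, counted back from the last base shown as -1. Of the 32851 windows of 250 bases, 1.55% held TGACGTCA and 12.4% held TATAAA.

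Areg (ENSMUSG00000029378; chromosome 5, 91139599 to 91148432, plus strand) had the greatest fold difference of the 9 and the fewest control counts. It had 132, 49, 748 and 211 counts in IL-10/Fc, against 17 and 1 in PBS. In CPM these were 4.42, 1.71, 26.9 and 6.01 in IL-10/Fc, against 0.577 and 0.0327 in PBS. Each IL-10/Fc library lay above both PBS libraries, the lowest by 2.96-fold over the higher PBS library, and IL-10/Fc replicate 3 stood far above the other 3. Summed over libraries, the ratio of IL-10/Fc to PBS was 31.3, with an exact 95% interval of 19.7 to 53.1 that covers counting error only. Its fitted log2 fold change was 4.99 (SE 1.64; 95% interval 1.02 to 8.96) and did not pass edgeR's test (adjusted p = 0.314). It passed DESeq2's Wald test (adjusted p = 0.00128) and was called higher in the authors' deposited table (log2 fold change 5.01, adjusted p = 0.00135). Without IL-10/Fc replicate 3 it was 3.72, without PBS replicate 1 8.05 and without PBS replicate 2 4.07, on the log2 scale. The library with the highest Areg, IL-10/Fc replicate 3, also had the highest dendritic cell and MHC class II sum, 1915 CPM, and the highest Csf1r, 18.8 CPM; their part in the Areg level was not tested. Mast cell genes were low throughout: Kit stood at 0.0570 to 2.31 CPM in IL-10/Fc, against 3.29 and 0.131 CPM in PBS. Egfr, the receptor of amphiregulin, was not among the listed genes.

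Csf1 (ENSMUSG00000014599; chromosome 3, 107741048 to 107760469, minus strand), the macrophage growth factor, stood at 134, 41.0, 93.1 and 84.5 CPM in IL-10/Fc, against 25.4 and 50.1 CPM in PBS. Of the 4 IL-10/Fc libraries 3 exceeded both PBS libraries, and replicate 2 lay between them. This gave a log2 fold change of 1.23 (SE 0.51; 95% interval -0.01 to 2.46) and did not pass (edgeR adjusted p = 0.394; DESeq2 adjusted p = 0.0910). In the authors' deposited table it was not called either (adjusted p = 0.104). Without PBS replicate 1 the difference was 0.81, and without PBS replicate 2 it was 1.80, on the log2 scale. Its receptor Csf1r, a defining macrophage marker, stood at 2.41, 7.95, 18.8 and 6.27 CPM in IL-10/Fc, against 3.77 and 0.523 CPM in PBS. IL-10/Fc replicate 1 had the highest Csf1 and the lowest IL-10/Fc Csf1r, so the ligand did not follow its receptor from library to library.

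The 250 bases before Csf1 (chr3:107760470-107760719, minus strand, RefSeq on GRCm38.p6) are shown because they held the most kappaB-type matches of the 9, GGGA and CC 4 bases apart on either strand.
Csf1: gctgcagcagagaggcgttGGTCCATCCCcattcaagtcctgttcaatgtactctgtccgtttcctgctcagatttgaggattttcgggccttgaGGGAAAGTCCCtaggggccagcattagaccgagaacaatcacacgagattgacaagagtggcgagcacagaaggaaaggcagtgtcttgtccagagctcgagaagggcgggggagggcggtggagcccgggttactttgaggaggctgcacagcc
There were 3 matches, of which 2 overlap by all but a base on opposite strands at -155 to -146 and -154 to -145. Of all windows 17.6% held at least 1. Ltb and Tgfb1 held 1 match each, and in the 182 bases available for Ltb it lay at -19 to -10.

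The least abundant of the 9 per length, on the mean of all 6 libraries, was Tgfb1, a factor that is made latent and must be freed to act. The gene (ENSMUSG00000002603; chromosome 7, 25687002 to 25705077, plus strand) had 28 to 123 counts per IL-10/Fc library, against 68 and 46 counts in PBS. In CPM these were 2.98, 1.53, 1.01 and 3.51 in IL-10/Fc, against 2.31 and 1.50 in PBS, and the groups overlapped. The fitted difference was 0.25 on the log2 scale (SE 0.65), and its 95% interval of -1.32 to 1.81 spans folds of 0.402 to 3.50. Differences within that interval are compatible with these libraries, and none was detected (edgeR adjusted p = 0.932). Tgfbr2, a receptor chain that T cells need to sense TGF-beta, stood at 36.0 to 69.2 CPM in IL-10/Fc, against 45.7 and 43.6 CPM in PBS. Of the proteins that hold or free latent TGF-beta, Lrrc32 and Itgb8 are named after their values were seen, and both were low. Lrrc32 stood at 0 to 1.64 CPM in IL-10/Fc, against 0.781 and 0.588 CPM in PBS. Itgb8 stood at 0 to 1.81 CPM in IL-10/Fc and at 0 in both PBS libraries. Itgav and Nrros were present in every library. Nrros stood at 8.44 to 35.9 CPM in IL-10/Fc, against 72.1 and 22.1 CPM in PBS.

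**Figure D3:**
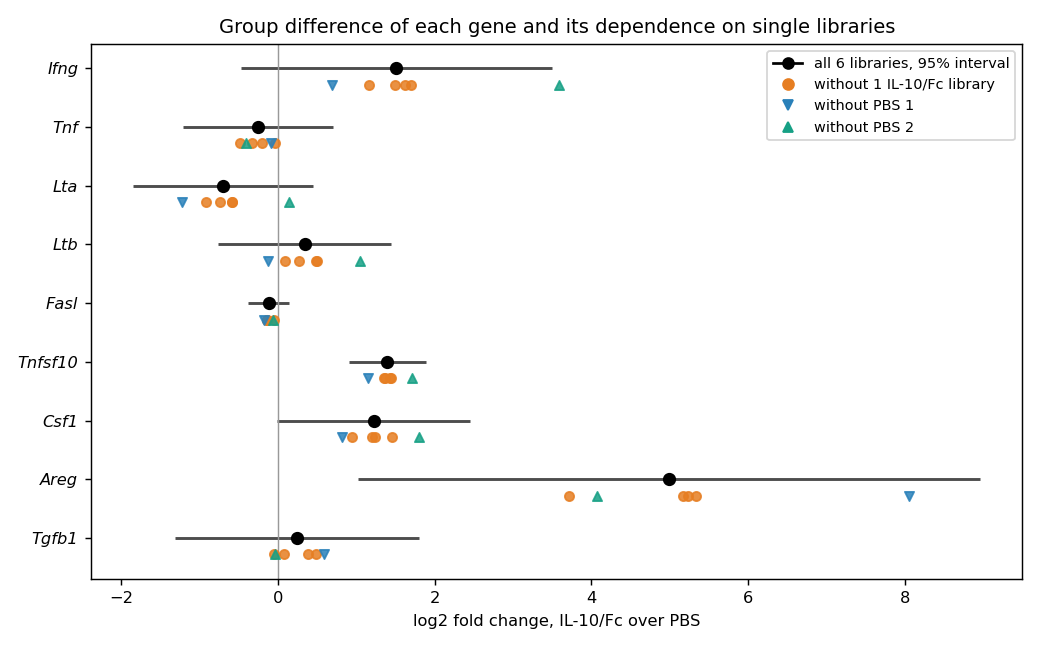
Log2 fold change of IL-10/Fc over PBS (horizontal axis) for each gene, with its 95% interval (black), and below it the value without 1 IL-10/Fc library (orange), without PBS replicate 1 (blue) or without PBS replicate 2 (green). Tnfsf10 stays between 1.15 and 1.71, Fasl lies near 0, and Ifng moves between 0.69 and 3.58 with the choice of PBS library.

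By the median, the PBS libraries lay further apart for these genes than for all genes tested. The median absolute log2 difference between the PBS libraries was 0.97 for the 9, beside 0.39 over all genes tested. It was 0.29 over genes with at least 20 CPM, a level that 3 of the 9 did not reach. Fasl and Tnf lay closer than the median of all genes, at 0.11 and -0.32 for PBS replicate 2 over PBS replicate 1 on the log2 scale. The level was higher in PBS replicate 2 than in PBS replicate 1 for 6 of the 9, all but Tnf, Areg and Tgfb1. More than 2-fold separated the PBS libraries for 4 of them (Ifng, Lta, Ltb and Areg).

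For each of the 6 genes with a mean of at least 20 CPM, the most similar patterns over the 6 libraries were sought among 4639 named genes of at least that level, by the root mean square distance of centred log2 CPM. With so few libraries close patterns are found for any gene, and the distances are descriptions only. Nearest to Ifng were Gcnt1, a glycosyltransferase (distance 0.34), and Cd38, an NAD-consuming ectoenzyme (0.43), against a spread of Ifng about its own mean of 1.35. Cd38 stood at 294 to 362 CPM in IL-10/Fc, against 39.0 and 215 CPM in PBS, and so shared the low PBS replicate 1. Nearest to Tnfsf10 was Cd2 (0.12), an adhesion receptor of T cells, followed by Dgat1 (0.14), an enzyme of triglyceride synthesis. Nearest to Tnf were Pdcd1lg2 (0.17), which encodes the PD-1 ligand PD-L2, and Otud6b (0.22). For Csf1 these were Ramp1 (0.25) and Slc48a1 (0.32), for Ltb Ppm1h (0.16) and Sf1 (0.16), and for Fasl Sucla2 and Ddx18 (both 0.05).

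Genes around the 9 were followed in 10 lists, in which 144 of 168 different genes were listed and tested. None passed edgeR's test over all genes. At an unadjusted p under 0.05, 17 were higher and 10 lower, beside 7.2% and 5.52% of all genes. DESeq2 called 7 higher and 4 lower, beside 3.46% and 1.58% of all genes, and limma-voom called 0. These shares of all genes are the background for the counts of each list. Some genes stand in more than 1 list. The receptors lay on both sides of 0, with a median log2 fold change of 0.05 over 11 genes, or 0.29 without PBS replicate 1 and 0.22 without PBS replicate 2. Ifngr1, the ligand-binding chain for interferon-gamma, was abundant in every library, at 2252 to 3502 CPM in IL-10/Fc, against 2499 and 2807 CPM in PBS. Its partner Ifngr2, by contrast, stood at 0.209 to 2.08 CPM in IL-10/Fc, against 0.883 and 0.0327 CPM in PBS. The TNF receptor Tnfrsf1b stood at 34.5 to 61.0 CPM in IL-10/Fc, against 42.0 and 72.6 CPM in PBS, and Tnfrsf1a at 6.44 to 14.6 CPM in IL-10/Fc, against 5.43 and 10.8 CPM in PBS. The lymphotoxin receptor Ltbr was below 1 CPM in every library. The remaining receptor chains Tgfbr1 and Tgfbr3 stood at 5.44 to 10.8 and 0.285 to 1.30 CPM in IL-10/Fc, against 5.77 and 8.69 CPM and 2.89 and 0.131 CPM in PBS.

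Of 21 tested interferon-gamma targets, 0 passed edgeR's test, 20 had log2 fold changes above 0 and the median was 0.74. At an unadjusted p under 0.05, 6 were higher and 0 lower, against 7.2% and 5.52% of all genes. The groups were apart on the higher side for 9 of the 21, against 12.1% of all genes. DESeq2 called 3 higher, the guanylate-binding protein genes Gbp2, Gbp4 and Gbp7, as did the authors' deposited table, and limma-voom 0. Gbp2, named after its values were seen, stood at 106 to 249 CPM in IL-10/Fc, against 50.1 and 76.8 CPM in PBS. The list median was 0.65 without PBS replicate 1 and 1.14 without PBS replicate 2. Over the 15 targets that reached 20 CPM in 2 libraries it was 0.56. The 3 most abundant targets did not pass edgeR or DESeq2. The immunoproteasome subunit Psmb8 stood at 1206 to 1335 CPM in IL-10/Fc, against 921 and 1220 CPM in PBS, the transcription factor Irf8 at 239 to 377 CPM in IL-10/Fc, against 278 and 286 CPM in PBS, and the GTPase Igtp at 239 to 481 CPM in IL-10/Fc, against 238 and 216 CPM in PBS. Averaged over the targets, log2 CPM was 4.96, 5.76, 5.57 and 5.82 in IL-10/Fc replicates 1 to 4, against 4.51 and 4.99 in PBS replicates 1 and 2. IL-10/Fc replicate 3, with the most Ifng, was thus not the library with the highest targets, while PBS replicate 1 was lowest in both. Many of these genes also respond to type I interferons, and myeloid cells express several of them. The macrophage markers without Ly6c2 summed to 283, 620, 1242 and 1245 CPM in IL-10/Fc, against 349 and 523 CPM in PBS. Gene by gene, 18 of the 20 macrophage markers were above 0, with a median of 1.57 and 7 called higher by DESeq2, and the dendritic cell and MHC class II list had a median of 2.11. The part of such cells in the result was not tested.

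Of the NF-kappaB targets of TNF, 15 were tested, 8 with log2 fold changes above 0 and 7 below, with a median of 0.04, or 0.22 without PBS replicate 1 and -0.10 without PBS replicate 2. By edgeR, DESeq2 and limma-voom 0 were called, and 1, Relb, was lower at an unadjusted p under 0.05. The inhibitor Nfkbia stood at 520 to 1121 CPM in IL-10/Fc, against 739 and 589 CPM in PBS, the adaptor Traf1 at 148 to 194 CPM in IL-10/Fc, against 185 and 145 CPM in PBS, and the subunit Rel at 116 to 177 CPM in IL-10/Fc, against 310 and 133 CPM in PBS. The 15 death receptor signalling genes had a median of 0.04, or 0.29 without PBS replicate 2, with 0 called by edgeR, 1 higher and 1 lower at an unadjusted p under 0.05, and 1 called lower by DESeq2 and by the authors' deposited table (Traf2, named after its values were seen). Casp8, the initiator caspase of Fas and TRAIL receptors, stood at 158 to 213 CPM in IL-10/Fc, against 136 and 184 CPM in PBS, Faim at 115 to 150 CPM in IL-10/Fc, against 171 and 121 CPM in PBS, and Birc2 at 53.3 to 152 CPM in IL-10/Fc, against 42.4 and 137 CPM in PBS. TGF-beta targets had a median of 0.41 over 14 genes, and of 0.05 without PBS replicate 2, with 0 called by edgeR, 3 higher and 1 lower at an unadjusted p under 0.05 (beside 7.2% and 5.52% of all genes), and 2 called higher by DESeq2 (Id2 and Tgfbi, beside 3.46% of all genes). Of these 14, the groups were apart for 2 on the higher side and 3 on the lower side, beside 12.1% and 11.5% of all genes. Id2, an inhibitor of E-protein transcription factors, stood at 1280 to 1727 CPM in IL-10/Fc, against 629 and 1110 CPM in PBS, with the groups apart (log2 fold change 0.85, SE 0.25; edgeR adjusted p = 0.276). Skil stood at 80.8 to 175 CPM in IL-10/Fc, against 135 and 164 CPM in PBS, and Tgif1 at 84.7 to 115.3 CPM in IL-10/Fc, against 151 and 115.5 CPM in PBS.

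Other ligands of the TNF superfamily leaned the other way from Tnfsf10. Of 7 tested, 6 had log2 fold changes below 0 with a median of -1.73, and 0 passed edgeR's test. At an unadjusted p under 0.05, 2 were lower, and DESeq2 called Cd70 lower. The median was -0.86 without PBS replicate 1 and -2.63 without PBS replicate 2. The 3 whose groups were apart, all lower, are named after their values were seen, against 11.5% of all genes apart on that side. The OX40 ligand gene Tnfsf4 stood at 19.3, 20.1, 97.1 and 33.6 CPM in IL-10/Fc, against 118 and 116 CPM in PBS. Cd70, the ligand of CD27, stood at 2.08, 2.16, 7.74 and 1.62 CPM in IL-10/Fc, against 42.2 and 11.3 CPM in PBS, and was called lower by the authors' deposited table (adjusted p = 0.00445). Tnfsf8, the ligand of CD30, stood at 0.436 to 3.31 CPM in IL-10/Fc, against 19.4 and 4.999 CPM in PBS. The B cell survival factor Tnfsf13b stood at 12.7 to 23.6 CPM in IL-10/Fc, against 11.2 and 30.7 CPM in PBS, and the RANK ligand Tnfsf11 at 6.10 to 12.8 CPM in IL-10/Fc, against 61.8 and 4.67 CPM in PBS. Of 13 ligands searched, 6 were not among the listed genes.

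Other T cell cytokines were few. Of 19 searched, 11 were listed, and their median difference was 0.25 on the log2 scale. By edgeR and DESeq2 0 were called, and 1, Il27, was higher at an unadjusted p under 0.05, being at 0 in both PBS libraries. Il27 had 1, 24, 17 and 43 counts in IL-10/Fc replicates 1 to 4. The authors' deposited table called Il27 higher (adjusted p = 0.0431), beside 3.57% of all genes. Whether it came from T cells or from other cells was not tested. Without IL-10/Fc replicate 2 the median was 0.50, without PBS replicate 1 it was 1.09, and without PBS replicate 2 it was -0.15. The osteopontin gene Spp1 stood at 299 to 1829 CPM in IL-10/Fc, against 2673 and 465 CPM in PBS, Mif at 513 to 610 CPM in IL-10/Fc, against 614 and 476 CPM in PBS, and Il16 at 18.5 to 40.9 CPM in IL-10/Fc, against 58.2 and 29.6 CPM in PBS. Spp1 thus ran opposite to Ifng in the PBS libraries. The T cell growth factor Il2, named after its values were seen, stood at 4.65 to 5.80 CPM in IL-10/Fc, against 4.58 and 4.35 CPM in PBS.

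Among 21 transcription factors that act on cytokine genes, 0 passed edgeR's test, with a median log2 fold change of 0.29. At an unadjusted p under 0.05, 4 were higher and 4 lower, beside 7.2% and 5.52% of all genes. The groups were apart for 6 on the higher side and 5 on the lower side, beside 12.1% and 11.5% of all genes. DESeq2 called 2 higher (Ikzf1 and Nfatc2) and 1 lower (Tbx21), beside 3.46% and 1.58% of all genes. The median was 0.13 without IL-10/Fc replicate 1, 0.49 without PBS replicate 1 and 0.45 without PBS replicate 2. Stat4, which relays IL-12, stood at 252 to 298 CPM in IL-10/Fc, against 332 and 374 CPM in PBS, with the groups apart (log2 fold change -0.38, SE 0.11; edgeR adjusted p = 0.280). The AP-1 genes Junb and Batf differed in sign: Junb stood at 89.9 to 157 CPM in IL-10/Fc, against 201 and 161 CPM in PBS, and Batf at 126 to 227 CPM in IL-10/Fc, against 42.9 and 122 CPM in PBS. Tbx21, which encodes T-bet, the activator of Ifng in type 1 immunity, is named after its values were seen. It stood at 73.4, 50.3, 54.6 and 49.3 CPM in IL-10/Fc, against 91.4 and 118 CPM in PBS, below both PBS libraries in 4 of 4 (log2 fold change -0.88, SE 0.20; edgeR adjusted p = 0.210). The authors' deposited table called it lower (adjusted p = 0.0101), the only 1 of the list. It called 4 of the list higher (Ikzf1, Prdm1, Nfatc2 and Jun), beside 3.57% of all genes. In PBS replicate 1, where Ifng was lowest, Tbx21 was higher than in any IL-10/Fc library.

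For the 16 tested regulators of cytokine messenger RNA the median difference was 0.36 on the log2 scale. It was 0.21 without PBS replicate 1 and 0.45 without PBS replicate 2. Over the 9 of them that reached 20 CPM in 2 libraries it was -0.003. Of the 16, 0 were called by edgeR, with 1 higher and 1 lower at an unadjusted p under 0.05. DESeq2 called 1 lower (Dusp1). Dusp1, a phosphatase that limits the MAP kinase signals which stabilise cytokine transcripts, stood at 154 to 250.3 CPM in IL-10/Fc, against 618 and 499.9 CPM in PBS, and did not pass edgeR's test (adjusted p = 0.148). Arid5a stood at 241 to 413 CPM in IL-10/Fc, against 309 and 280 CPM in PBS, and the RNA-binding protein gene Elavl1 at 213 to 234 CPM in IL-10/Fc, against 152 and 287 CPM in PBS. Of 14 processing and release genes, 0 were called by edgeR or DESeq2, 1 (Itgb8) was higher at an unadjusted p under 0.05, and the median was -0.08. That median had no stable sign, being 0.13 without PBS replicate 1, 0.04 without IL-10/Fc replicate 4 and -0.17 without PBS replicate 2. The integrin chain Itgav stood at 74.4 to 123 CPM in IL-10/Fc, against 139 and 108 CPM in PBS, and the sheddase gene Adam10 at 56.5 to 92.8 CPM in IL-10/Fc, against 40.8 and 73.3 CPM in PBS. Sppl2a, an intramembrane protease that cleaves TNF and Fas ligand stubs, stood at 55.3 to 67.2 CPM in IL-10/Fc, against 68.4 and 54.3 CPM in PBS.

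**Figure D4:**
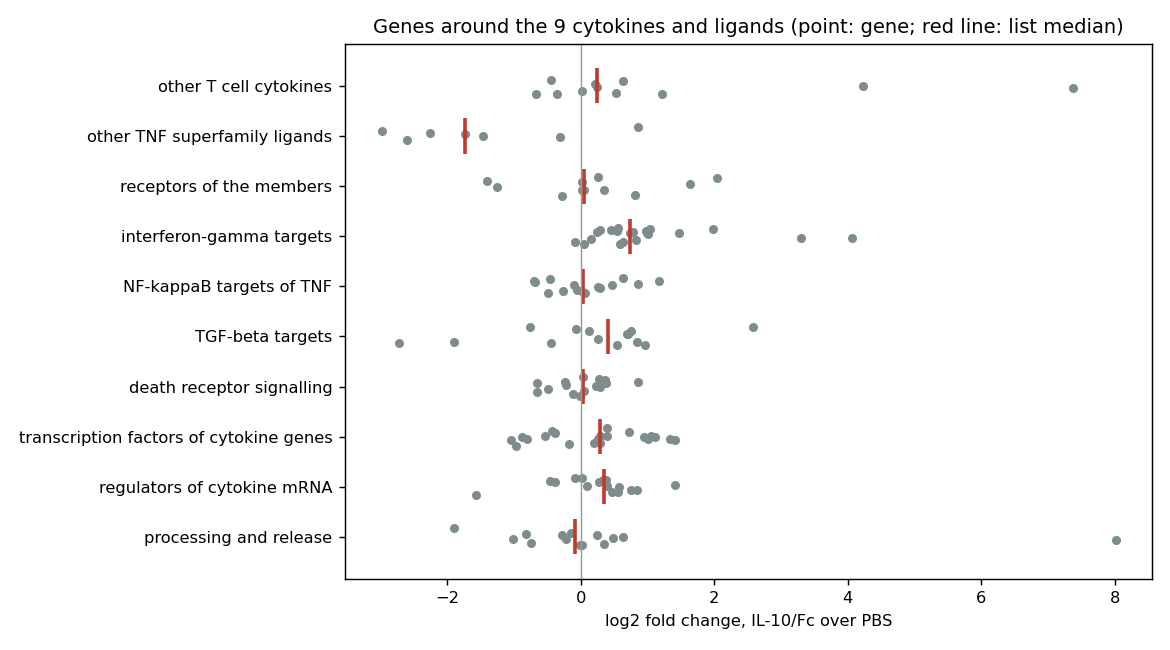
Log2 fold change of IL-10/Fc over PBS (horizontal axis) for each tested gene of the 10 lists (grey points) with the list median (red lines). Medians run from -1.73 for other TNF superfamily ligands to 0.74 for interferon-gamma targets, and points beyond 7 are genes at 0 in both PBS libraries, whose fitted value depends on the prior count.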

How the data were processed

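RNA of 500 sorted cells per library was amplified with Smart-Seq2, per the labels' protocols. The authors deposited raw counts, whole numbers per gene, in a file per library and, with equal values, in a table of the series that also holds their own comparison. Per the file headers, the authors deposited for each gene the mean normalized count (a signal, not used here), the log2 fold change with its error, the Wald statistic (a score), the p-value and its adjusted form. Per the submitters' processing notes, the tools were DESeq2, Cuffdiff, Cufflinks 2.2.1, Bowtie2 2.2.9, TopHat2 2.1.1 and Trimmomatic, with build GRCm38 (mm10). Which tool counted reads is not given in the sources used. The table lists 15898 genes, so totals cover those genes. File columns number the PBS libraries differently from the titles, and the titles were followed.

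Genes were kept with filterByExpr by group (15477), scaled by TMM (factors 0.950 to 0.983 in IL-10/Fc, 1.10 and 1.06 in PBS) and tested with edgeR 4.0.16 (glmQLFit with the robust option, glmQLFTest; group as the sole term; R 4.3.3), two-sided, with Benjamini-Hochberg adjustment over all genes at 0.05. Standard errors are the log2 fold change over the root of F. Tests were also run on simulated data. Alternatives were DESeq2 1.42.0 size factors and Wald test, limma 3.58.1 voom, library size only, no count filter, no robust option, a filter of 20 CPM in 2 libraries, a block for the replicate number, and leaving out each library. Where 1 PBS library is left, its spread is taken to equal that within IL-10/Fc. Named from each list were the 3 genes with the highest mean CPM and the receptors, unless said otherwise. The 9 genes and the lists were chosen with earlier results of these data known. Gene IDs matched GENCODE M21 (GRCm38) for 15846 of 15898 genes, all on the same chromosome, and exon lengths come from it. All 9 genes had a RefSeq upstream sequence. Intervals of count ratios and floors cover counting error only, since PCR copies without molecular identifiers are not independent molecules.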

Additional observations from a re-analysis of the deposited data

Results flagged for a closer look

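For normally distributed values, chance flags about 1 in 20 groups of 4 by the gap between a library and its nearest neighbour. The gap was taken on CPM and not on the log2 scale, so that rate may not hold for skewed levels such as those of Areg. Fasl in IL-10/Fc was flagged because replicate 1, at 501 CPM, lay apart from the other 3, at 595 to 604 CPM, a gap of 0.916 of the range. Without that library the log2 fold change of Fasl was -0.05, beside -0.11 with it. Areg in IL-10/Fc was flagged because replicate 3, at 26.9 CPM, lay apart from the other 3, at 1.71 to 6.01 CPM, a gap of 0.8294 of the range. Without it the log2 fold change of Areg was 3.72, beside 4.99 with it.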

How the results depend on the processing

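The number of genes called across the table, 1 with edgeR, was 60 when 20 CPM in 2 libraries was required, 750 with DESeq2's Wald test, and 0 with library size only, without the robust option and with a replicate block. Leaving out single libraries gave 0 to 16 genes, the 16 without PBS replicate 2. It gave ranges of -1.23 to 0.15 for Lta, -0.13 to 1.05 for Ltb and -0.05 to 0.59 for Tgfb1 on the log2 scale. Of the 9 genes described, 0 were called, 1 with 20 CPM in 2 libraries (Tnfsf10) and 2 with DESeq2 (Tnfsf10 and Areg); leaving out single libraries gave 0 each time. The log2 fold change changed sign for Lta without PBS replicate 2 (0.15), Ltb without PBS replicate 1 (-0.13) and Tgfb1 without IL-10/Fc replicate 4 (-0.049) or PBS replicate 2 (-0.03); the cause was not tested. The other signs held in every setting run. Lta, Areg and Tgfb1 did not reach the filter of 20 CPM in 2 libraries. Library size only moved the median of all genes to -0.18 and Tnfsf10 to 1.23 on the log2 scale, and the medians of the receptors (-0.11), NF-kappaB targets (-0.14) and death receptor genes (-0.13) to below 0. With the block the medians of the TGF-beta targets (-0.11) and processing genes (0.03) changed sign. At 20 CPM in 2 libraries those of the other cytokines (-0.23), NF-kappaB targets (-0.07) and regulators of cytokine messenger RNA (-0.003) did. Further medians close to 0 changed sign in each case. Deviations of same-numbered libraries correlated at 0.06 and 0.01 over genes, with 2 pairs, so the replicate numbers were not taken as a pairing; with the block Tnfsf10 stood at 1.54 (adjusted p = 0.612). With 2 PBS libraries, the interval of Ifng spans folds of 0.722 to 11.3, and that of Areg rests on 18 control counts.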
